A study of Mus musculus with 24 samples.

Results

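Nnat and 8 other imprinted genes with roles in growth were followed in whole back skin of mice that ate at different times of day. The 9 genes are Nnat, Igf2, Dlk1, Plagl1, Peg3, H19, Meg3, Cdkn1c and Grb10. They were chosen by symbol from 29758 symbols with an exon row, and Nnat was picked because its level differed between the EN and MD feeding groups of these same libraries. For that reason the mean level of Nnat in all groups, and the EN against MD level of every member, are given as values with no test. Of the 9 genes, 8 had enough reads to be tested among 15719 genes. Dlk1 did not, with 3 to 16 reads per library.

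Imprinted genes are transcribed mainly or only from the copy inherited from a given parent, as set by DNA methylation laid down in the egg or sperm. Many of them act on growth, and paternally expressed members such as Igf2 tend to promote growth of the fetus while maternally expressed members such as Cdkn1c, Grb10 and H19 tend to restrain it. Many fall after birth, and several stay active in adult stem cells, muscle and fat. Nnat encodes neuronatin, a small membrane proteolipid of the endoplasmic reticulum that is known from brain, pancreatic islets and fat tissue.

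The mice were wild type male C57BL/6NCrl, a common inbred strain, about 8 weeks old, and labelled as having hair follicles at rest (telogen). All of them lived under a cycle of 12 h light and 12 h dark, in which ZT0 is the time of lights on and ZT counts the hours from it, and had free water and regular chow within a daily window. That window ran from ZT12 to ZT16 in EN, from ZT5 to ZT9 in MD and from ZT0 to ZT4 in ED, and was kept for 18 to 21 days. Each group had 8 libraries, 1 at every 4 h from ZT0 to ZT28, and each library was made from RNA pooled from 2 to 4 animals. No group of free-feeding animals was analysed here. Nothing in the labels says whether pools of different times hold separate animals. With 1 pool per group and time, the error behind the p-values below is the departure of pools from a fitted model. It holds both the spread between pools and any misfit of that model. The spread between single animals was not measured.

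Total exon counts ran from 13751005 to 26316851 in EN, from 16569065 to 22634710 in MD and from 13222667 to 21123206 in ED. Keratinocyte markers were abundant in every library, with the summed level of 4 suprabasal markers between 6362 and 8147 CPM (counts scaled to library size). Skeletal muscle markers were abundant too. Against the telogen label, 6 markers of the hair shaft and the growing follicle summed to 1490 CPM in EN ZT0 and 704 CPM in ED ZT24, while the group medians were 2.30 CPM in EN, 2.20 CPM in MD and 3.05 CPM in ED. Without both libraries the same members were called in every comparison below. The adjusted p values of Peg3 without them are given beside its rhythm. A code running from L1 to L8 in the labels has 3 libraries per value and follows the groups. Only L3 holds both MD (ZT24 and ZT28) and ED (ZT0), only L6 holds both EN (ZT0 and ZT4) and ED (ZT28), and no value holds EN and MD. The code and the feeding group therefore cannot be told apart over most of the libraries.

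Several members sit in clusters (GRCm38, the same sequence as mm10). Nnat lies on the plus strand of chromosome 2, from 157560078 to 157562522, within the span of Blcap (157556362 to 157571274), which is read from the opposite strand. Chromosome 7 carries H19 (142575529 to 142578143) and Igf2 (142650766 to 142666816) 72.6 kb apart, Cdkn1c (143458339 to 143461050) a further 791.5 kb away, and Peg3 (6703892 to 6730431) far from these, all on the minus strand. Dlk1 (109452823 to 109463336) and Meg3 (109541001 to 109571726) are 77.7 kb apart on the plus strand of chromosome 12. Plagl1 is on chromosome 10 (13060504 to 13131694) and Grb10 on chromosome 11 (11930508 to 12038683).

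The 250 bases before the RefSeq start of Nnat and of Peg3 are shown because these were the member with the widest spread of level and the member with a rhythm called in MD. Capitals mark matches on either strand to the motifs searched, which were the E-box CACGTG, the D-box TTATGTAA, the cAMP response element TGACGTCA and the NRF1 core GCATGCGC. The cAMP response element and the NRF1 core were added to the search after the windows had been read.
Nnat, chr2:157559828-157560077, plus strand, GRCm38.p6: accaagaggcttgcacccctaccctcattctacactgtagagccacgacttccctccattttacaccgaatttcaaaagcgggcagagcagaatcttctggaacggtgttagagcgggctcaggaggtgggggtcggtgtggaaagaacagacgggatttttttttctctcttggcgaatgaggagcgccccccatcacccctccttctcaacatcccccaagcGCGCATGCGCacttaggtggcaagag
Peg3, chr7:6730420-6730669, minus strand, GRCm38.p6: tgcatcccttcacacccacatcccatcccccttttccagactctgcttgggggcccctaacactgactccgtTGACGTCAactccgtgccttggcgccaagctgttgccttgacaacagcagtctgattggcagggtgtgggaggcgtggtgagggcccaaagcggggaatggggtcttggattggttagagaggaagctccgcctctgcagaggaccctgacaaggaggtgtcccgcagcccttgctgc
The window of Nnat held the NRF1 core on both strands in overlapping matches that begin 26 and 24 bases before the start, and this core was found in 2.26% of 32851 such windows. The window of Peg3 held the cAMP response element 178 bases before the start, found in 1.55% of windows. Since both motifs were added after the windows had been read, these shares do not measure how unusual the matches are. Neither held an E-box (6.02% of windows) or a D-box (0.819%). Of the 12 windows of the 7 members in the RefSeq table, a window of Meg3 also held the cAMP response element and that of Plagl1 an E-box.

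H19 is a long non-coding RNA whose transcript also carries the hairpin of miR-675. Both arms are given because the reads counted for H19 come from the same transcript, with the seed (bases 2 to 8) in capitals.
mmu-miR-675-5p: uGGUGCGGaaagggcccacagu
mmu-miR-675-3p: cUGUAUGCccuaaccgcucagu
The seeds of the arms differ. Mature miRNAs were not measured in these libraries, which were made from total RNA with a stranded kit.

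On a scale per length, the deposited RPKM values (reads scaled to length and library size, normalized with cqn), the 9 genes spanned a wide range. H19 was highest, with a median level of 57.4 RPKM over the 24 libraries, followed by Grb10, an adaptor that dampens insulin and IGF receptor signalling, at 19.1 RPKM. Peg3, a zinc finger protein of muscle and neural cells, had a median of 11.3 ± 4.17 RPKM and Cdkn1c, the cyclin-dependent kinase inhibitor p57, 8.35 ± 2.21 RPKM (SD over 24 libraries). Nnat had 3.69 ± 3.81 RPKM, the non-coding RNA Meg3 had 3.41 ± 0.95 RPKM and the zinc finger protein gene Plagl1 had 2.63 ± 0.377 RPKM. Igf2, the fetal growth factor, was at 1.48 ± 0.423 RPKM and Dlk1, a membrane protein that holds back fat cell formation, at 0.157 RPKM. Peg3 and Cdkn1c, Nnat and Meg3, and Meg3 and Plagl1 are neighbours in this order that did not differ by more than the larger of their SDs.

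Nnat was high in EN, intermediate in ED and low in MD. In EN it had 9.27, 7.92, 19.9, 27.7, 9.63, 8.18, 17.8 and 5.04 CPM from ZT0 to ZT28. In MD it had 0.219, 3.12, 0.671, 2.56, 1.21, 3.34, 5.46 and 2.85 CPM, and in ED 10.6, 6.55, 2.50, 3.40, 7.28, 8.06, 11.1 and 0.816 CPM at the same times. EN and MD overlapped only in that the highest MD library, ZT24, lay above the lowest EN library, ZT28. ED overlapped both groups.

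**Figure D1:**
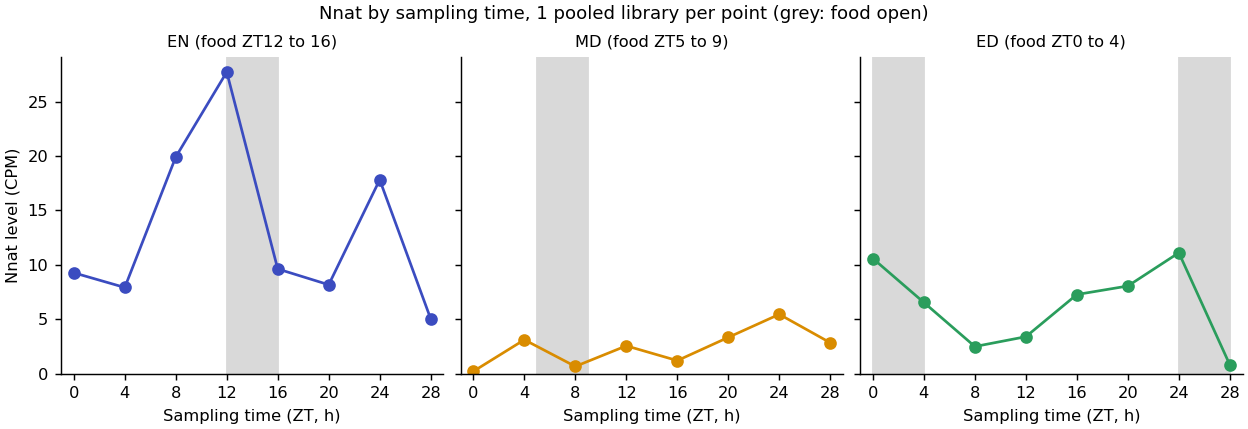
Nnat level in CPM (vertical axis, linear) against sampling time in hours ZT (horizontal axis) in EN, MD and ED, with 1 pooled library per point and grey bands where food was open. The EN libraries lie between 5.04 and 27.7 CPM and the MD libraries between 0.219 and 5.46 CPM, with ED between 0.816 and 11.1 CPM.

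Nnat averaged 13.2 ± 7.79 CPM in EN, 2.43 ± 1.70 CPM in MD and 6.29 ± 3.75 CPM in ED (SD, n = 8 each). The fitted mean of EN exceeded that of MD by 2.73 ± 0.62 on the log2 scale, which is 6.65-fold. It exceeded that of ED by 1.31 ± 0.62, and MD lay below ED, with a log2 difference of -1.42 ± 0.62 (standard errors from least squares over the 24 libraries). These 3 differences share libraries and are a description of the values that chose the gene. They rest on few reads, from 75 to 435 in EN, 5 to 128 in MD and 14 to 230 in ED. For the 435 reads of EN ZT12 the 95% interval was 25.2 to 30.5 CPM and for the 5 reads of MD ZT0 it was 0.0712 to 0.512 CPM (exact Clopper-Pearson, counting error only). The values are for 1 of 2 exon models of the symbol, with 2980 reads in total, and the other model had 2921.

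Pools of Nnat taken at the same clock time on consecutive days differed widely in some cases. In MD, ZT24 was 24.9-fold above ZT0, and in ED, ZT4 was 8.02-fold above ZT28. In the other 4 pairs of this kind the ratio was 1.05 to 1.92. After the fit of a daily curve in each group, the residual SD of Nnat was 1.19 on the log2 scale, larger than that of 99.9% of genes tested, against a median of 0.185 over all genes. The spread within a group was thus far wider for Nnat than for H19 (0.301), Igf2 (0.32), Peg3 (0.295), Meg3 (0.264), Cdkn1c (0.234), Plagl1 (0.156) or Grb10 (0.0961).

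Intron and antisense reads were present at the Nnat locus as well. Intron reads numbered 194 in all libraries together, with 3 to 44 per library in EN, 0 to 8 in MD and 0 to 15 in ED, so that their groups stood in the same order as the exon reads. Antisense reads, which lie on the strand of Blcap, numbered 44 to 99 in EN, 77 to 141 in MD and 38 to 97 in ED, and were not lower in MD. The kit keeps strand and the table has separate antisense rows, yet the sources used here do not state how reads were assigned where the genes overlap.

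Fat cell markers were lower in MD than in ED, and no difference between EN and ED was called. The summed level of 7 adipocyte markers was 1871 to 3328 CPM in EN, 928 to 1550 CPM in MD and 1712 to 2550 CPM in ED. None of the 7 was at 0. In MD against ED 7 of 7 fell, beside 11.8% of all genes. In EN against ED 0 of 7 were called, beside 0% of all genes, with a median log2 difference of 0.094. EN ZT12 had the highest and MD ZT0 the lowest value of both Nnat and the summed fat cell markers, and ED ZT24 was the highest of ED in both. Other libraries departed from this. ED ZT16 had the lowest sum of ED (1712 CPM) beside 7.28 CPM of Nnat. ED ZT28 had the lowest Nnat of ED (0.816 CPM) beside a sum of 2012 CPM, and EN ZT24 had 17.8 CPM of Nnat beside 2022 CPM. The part of fat cell content in the Nnat values was not tested. In bulk tissue, fewer cells of a type and less RNA per cell cannot be told apart.

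The genes whose course over the 24 libraries was most like that of Nnat, after group means were subtracted, included Itih5 (Pearson r = 0.721), Glb1l2 (0.720), AK219995 (0.702) and Fgfrl1 (0.701). Without that step they were Glb1l2 (0.863), complement factor B gene Cfb (0.833), Fgfrl1 (0.832), haptoglobin gene Hp (0.818) and Npr3 (0.817), which encodes a natriuretic peptide receptor. Libraries of a group share a feeding regime and mostly the L code, and these values are a description with no test.

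Mean levels of the other members were compared between MD and ED, and 5 of the 7 that could be tested rose in MD. They were H19, Cdkn1c, Igf2, Peg3 and Plagl1, with folds of up to 1.76. The other 2, Meg3 and Grb10, did not pass and none fell. Throughout, a call is an adjusted p under 0.05 in edgeR's quasi-likelihood test with Benjamini-Hochberg adjustment over all genes tested. Of those genes 23.0% were called in this comparison, 11.2% higher and 11.8% lower in MD, and the members' count stands against that background. The median log2 difference was 0.42 over the members tested and -0.0052 over all genes.

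**Figure D2:**
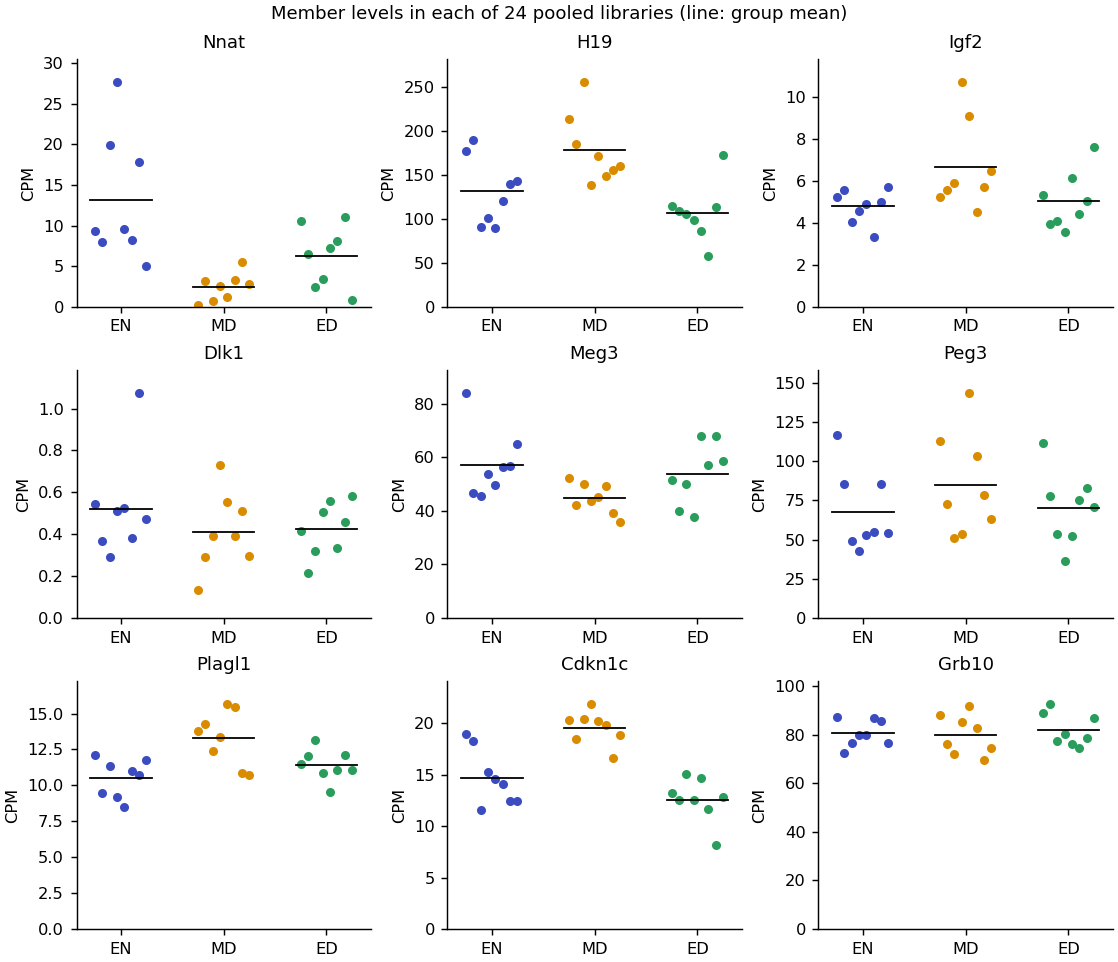
Level of each of the 9 genes in CPM (vertical axes, linear from 0) in the 8 pooled libraries of EN, MD and ED, in order of sampling time within a group, with a line at the group mean. Cdkn1c lies between 16.6 and 21.9 CPM in MD and between 8.15 and 15.1 CPM in ED, while Grb10 spans 69.7 to 92.8 CPM over all groups.

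Among the growth-restraining members, H19 and Cdkn1c differed most. H19 had 213, 185, 256, 139, 171, 148, 156 and 160.2 CPM in MD from ZT0 to ZT28, against 115, 109, 105, 98.2, 86.2, 57.3, 114 and 173 CPM in ED. ED ZT28 was the only ED library above the lowest MD library. The log2 difference was 0.82 ± 0.16, a 1.76-fold rise (adjusted p = 3.38e-04). Cdkn1c had 20.3, 18.4, 20.5, 21.9, 20.2, 19.8, 16.6 and 18.9 CPM in MD, against 13.2, 12.5, 15.1, 12.5, 14.7, 11.6, 8.15 and 12.8 CPM in ED. All 8 MD libraries were above all 8 ED libraries, and the log2 difference was 0.64 ± 0.12, a 1.56-fold rise (adjusted p = 4.91e-04). Within L3, the code value that MD and ED share, H19 had 156 and 160.2 CPM in the MD libraries against 115 CPM in the ED library. Cdkn1c had 16.6 and 18.9 CPM against 13.2 CPM, and Igf2 5.72 and 6.48 CPM against 5.34 CPM. Peg3 (78.7 and 62.9 against 111 CPM) and Plagl1 (10.9 and 10.8 against 11.5 CPM) were lower in the MD libraries of L3. These libraries were also taken at different times, and no conclusion about the code is drawn from them.

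Grb10 and Meg3 did not pass. Grb10 averaged 80.1 ± 8.07 CPM in MD and 82.0 ± 6.71 CPM in ED (SD, n = 8 each). The log2 difference between the fitted means of the daily curves was 0.0075, with a 95% interval of -0.10 to 0.11, and its sign changed over fits that left out 1 library (-0.019 to 0.032). It was the steadiest member, with a smaller residual SD in only 7.24% of genes. Meg3 averaged 44.7 ± 5.65 CPM in MD and 53.8 ± 11.4 CPM in ED, with a log2 difference of -0.22 ± 0.14 (adjusted p = 0.167). With limma on the deposited RPKM values the Meg3 difference was -0.38 with a pseudocount of 1 and passed as a fall in MD (adjusted p = 0.0124).

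Igf2, Plagl1 and Peg3, all paternally expressed, rose less firmly. Igf2 had 5.22, 5.56, 5.92, 10.7, 9.10, 4.52, 5.72 and 6.48 CPM in MD, against 5.34, 3.95, 4.10, 3.55, 6.16, 4.45, 5.02 and 7.64 CPM in ED. The groups overlapped, and the libraries at ZT12 and ZT16 were the highest of MD. The log2 difference was 0.50 ± 0.17 (adjusted p = 0.0290), on 49 to 181 reads per library. Plagl1 averaged 13.3 ± 1.87 CPM in MD and 11.4 ± 1.08 CPM in ED, a log2 difference of 0.26 ± 0.08 (adjusted p = 0.0302). Peg3 averaged 84.9 ± 32.5 CPM in MD and 70.0 ± 22.9 CPM in ED, a log2 difference of 0.39 ± 0.15 (adjusted p = 0.0290). None of these 3 was called in a fit of group means alone or in a fit with sampling time as a block, in which only H19 and Cdkn1c were called. Without MD ZT16, and likewise without ED ZT12, the count was again 2, and it was 3 without MD ZT4 or without ED ZT20.

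**Figure D3:**
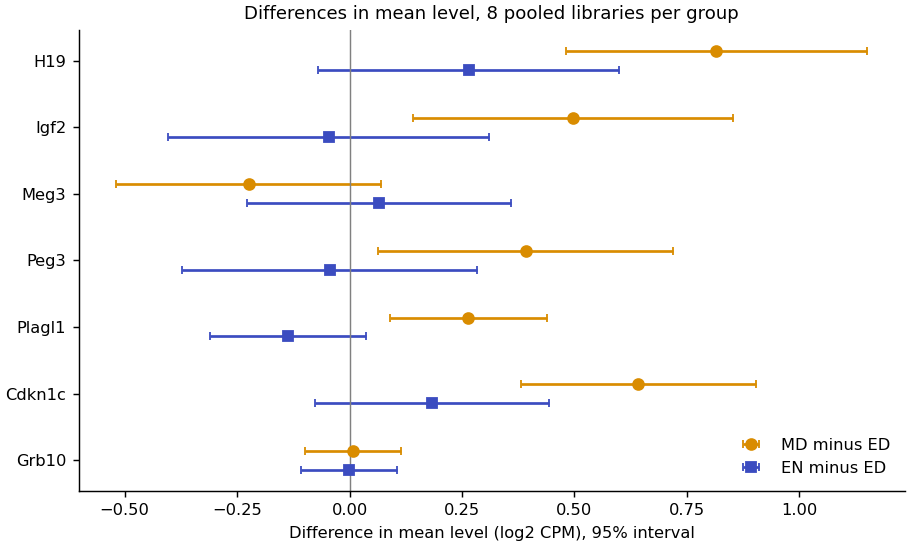
Difference in mean level (horizontal axis, log2 CPM, with the 95% interval) for the 7 other members with enough reads, MD minus ED as circles and EN minus ED as squares. The MD minus ED intervals of H19, Igf2, Peg3, Plagl1 and Cdkn1c lie above 0, and every EN minus ED interval includes 0.

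Intron rows, which count reads from unspliced RNA, gave another picture for Plagl1. Of the members, Nnat, Meg3, Peg3, Plagl1 and Grb10 had enough intron reads for a fit across 14585 intron rows, in which 15.5% were called between MD and ED. Plagl1 differed by -0.097 ± 0.071 in intron rows, in the opposite direction to its exon rows (adjusted p = 0.406). Peg3 differed by 0.35 ± 0.16 (adjusted p = 0.0794) and Meg3 by -0.29 ± 0.11 (adjusted p = 0.0542), so that no member passed. The share of exon and intron reads that fell in introns was 35.6 to 38.8% in EN, 38.1 to 45.0% in MD and 35.2 to 44.1% in ED.

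Several marker lists moved between MD and ED as well, where 11.2% of all genes were called higher and 11.8% lower in MD. Of 8 fast muscle markers 6 rose, and their sum was 12043 to 22460 CPM in MD against 7433 to 21929 CPM in ED, while 6 of 6 slow muscle markers fell (1.96 to 20.4 CPM against 15.5 to 63.9 CPM). Of 3 tested satellite cell markers 2 rose (6.05 to 15.3 CPM against 2.83 to 15.7 CPM for 5 markers). Of 6 dermal fibroblast markers 4 fell (27058 to 42437 CPM against 41572 to 69828 CPM), and 3 of 5 basal keratinocyte markers rose (4475 to 5946 CPM against 4575 to 5754 CPM). No marker of these lists was at 0 in all libraries. No call was made among the 4 suprabasal keratinocyte, 4 melanocyte, 3 dermal papilla, 3 hair follicle and 2 neuron markers tested. For endothelium, Schwann cells and sebaceous gland 1 of 4 was called each, and for macrophages 1 of 3. The genes with the course most like that of H19 were Myh1, a fast myosin (r = 0.894), Myom3 (0.878), of the sarcomere, and Fhl1 (0.851), a LIM domain protein of muscle. ED ZT28 had both the highest H19 and the highest fast muscle sum of ED, and ED ZT20 the lowest of both. MD ZT0 departed from this, with 213 CPM of H19 beside the lowest fast muscle sum of MD. The part of tissue make-up in the members' differences was not tested.

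**Figure D4:**
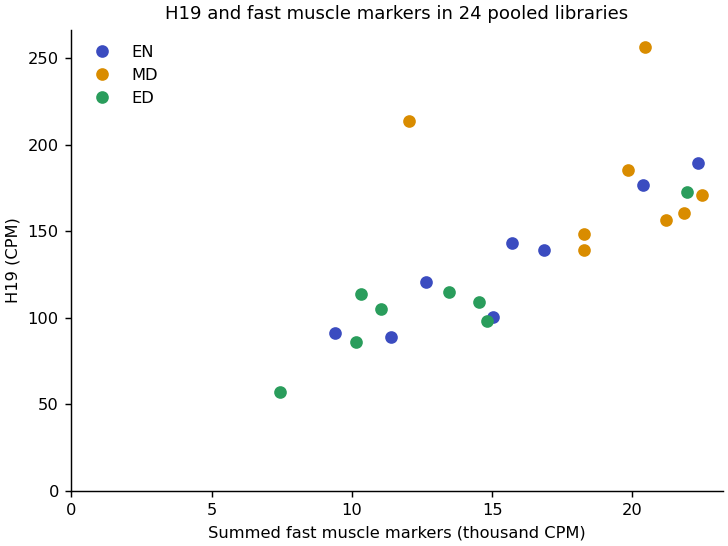
H19 level in CPM (vertical axis) against the summed level of 8 fast muscle markers (horizontal axis, in units of 1000 CPM), 1 point per pooled library, for EN, MD and ED. The lowest library on both axes is ED ZT20 with 57.3 CPM of H19, and MD ZT8 (256 CPM) and MD ZT0 (213 CPM) lie above the other libraries.

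Between EN and ED no member was called of the 7 tested. This comparison called 0% of all genes with edgeR (961 at an unadjusted p under 0.05) and 6 genes with DESeq2, none of them a member, and no member had an unadjusted p under 0.05. H19 had the largest difference, 0.26 ± 0.16 with a 95% interval of -0.07 to 0.60 on the log2 scale, and that of Igf2 was -0.047 with an interval of -0.40 to 0.31. For Peg3 the interval was -0.37 to 0.28, for Cdkn1c -0.08 to 0.44 and for Meg3 -0.23 to 0.36. Differences inside these intervals were not excluded with 8 pools per group. Set beside MD with no test, EN was lower for Cdkn1c (log2 difference -0.46 ± 0.12), H19 (-0.55 ± 0.16), Igf2 (-0.54 ± 0.17), Peg3 (-0.44 ± 0.15) and Plagl1 (-0.40 ± 0.08), near 0 for Grb10 (-0.0085 ± 0.050) and higher for Meg3 (0.29 ± 0.14). The comparisons with MD share its libraries, and those with ED share the libraries of ED.

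Peg3 was the only member whose exon rows had a called daily rhythm, in MD alone. In EN it had 117, 85.7, 49.1, 42.5, 53.2, 54.8, 85.3 and 54.4 CPM from ZT0 to ZT28. In MD it had 113, 72.9, 50.7, 53.8, 144, 103, 78.7 and 62.9 CPM, and in ED 111, 77.6, 53.7, 36.1, 52.5, 75.0, 82.8 and 70.7 CPM. Every group was high at ZT0 and low at ZT8 and ZT12, and MD was high again at ZT16, when EN and ED were still low. On the second day ZT24 and ZT28 were lower than ZT0 and ZT4 in each group, by ratios of 1.10 to 1.58.

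**Figure D5:**
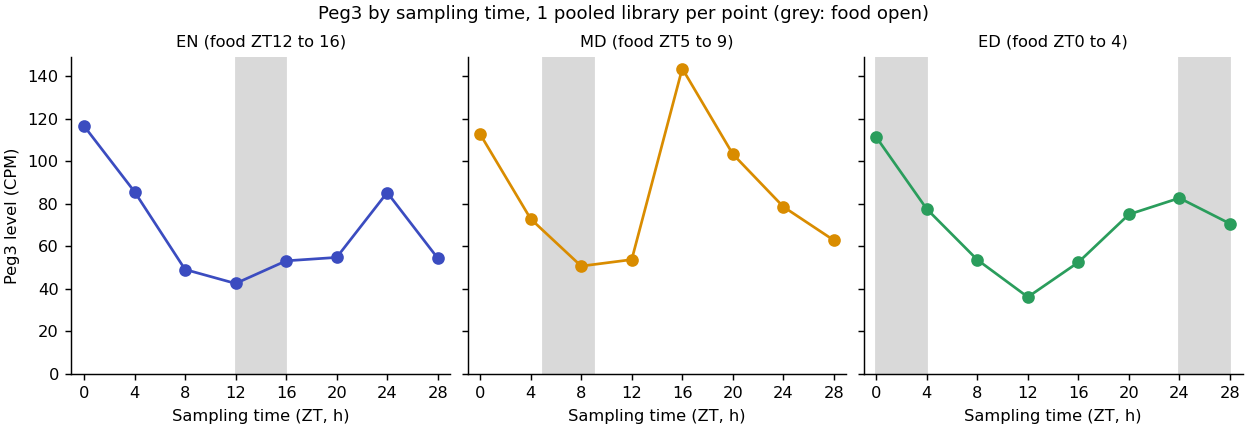
Peg3 level in CPM (vertical axis, linear) against sampling time in hours ZT (horizontal axis) in EN, MD and ED, with 1 pooled library per point and grey bands where food was open. Peg3 is lowest at ZT12 in EN (42.5 CPM) and ED (36.1 CPM) and at ZT8 in MD (50.7 CPM), and reaches 144 CPM at ZT16 in MD.

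The fitted 24 h curve of Peg3 had a log2 amplitude, from mean to peak, of 0.55 ± 0.15 in EN with a peak at ZT 0.206 ± 1.08 h (adjusted p = 0.0767). In MD the amplitude was 0.63 ± 0.16 with a peak at ZT 19.7 ± 0.873 h (adjusted p = 0.0493), and in ED 0.63 ± 0.15 with a peak at ZT 24.0 ± 0.935 h (adjusted p = 0.0555). The call was thus made in MD alone, by a narrow margin, and it was lost in 17 of the 24 fits that left out 1 library. Without EN ZT0 and ED ZT24, the libraries with high hair markers, the adjusted p was 0.298 in EN, 0.0307 in MD and 0.0510 in ED. Peg3 was called in ED and EN as well with DESeq2 (adjusted p = 0.00230 and 0.00735). The background of calls was 1.06% of genes in EN, 0.942% in MD and 0.719% in ED. EN and ED, whose meals began 12 h apart, had close peak times, and their rhythms were not called different (adjusted p = 0.978). Those of EN and MD (adjusted p = 0.162) and of MD and ED (adjusted p = 0.182) were not called different either, against a background of 0.350% for each of these pairs and 0.401% for EN and ED. With DESeq2 both pairs with MD passed (adjusted p = 0.0427 and 0.0410). In intron rows the Peg3 amplitude was 0.37 ± 0.16 in EN, 0.58 ± 0.16 in MD and 0.60 ± 0.16 in ED, with peaks at ZT 22.5, 18.6 and 23.0, and none was called (adjusted p = 0.409, 0.0874 and 0.126), against a background of 0.898%, 0.836% and 0.453% of intron rows in EN, MD and ED.

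The genes most like Peg3 over the 24 libraries, group means subtracted, were Sash1 (r = 0.891), Pde3a (0.888), a phosphodiesterase, and Plekhg1 (0.888). Zim1, the imprinted gene 7.4 kb from Peg3, ranked 4 of 15718 with r = 0.875, and was looked up after the values were seen. Other neighbours in imprinted clusters were less alike, with r = 0.556 for Meg3 and Rian, 0.536 for Meg3 and Mirg, and 0.224 for H19 and Igf2. For Nnat and Blcap r was 0.276. Among the members themselves the highest values were 0.50 for Plagl1 and Grb10 and 0.485 for Peg3 and Grb10, and the lowest was -0.574 for Nnat and H19.

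No other member had a called rhythm. The exon amplitude of Nnat was 0.58 ± 0.60 in EN, 0.16 ± 0.62 in MD and 1.24 ± 0.63 in ED (adjusted p = 0.746, 0.794 and 0.361). H19 had amplitudes of 0.47 ± 0.15 in EN and 0.47 ± 0.16 in ED, with peaks at ZT 1.43 and ZT 5.27 (adjusted p = 0.182 and 0.195), and Igf2 had 0.43 ± 0.16 in MD with a peak at ZT 12.3 (adjusted p = 0.213). The intron row of Nnat met the count filter in 6 EN, 0 MD and 2 ED libraries, so that it was kept mainly through the group where it is high, and nothing is read from its fits. The EN libraries held 4, 11, 44, 30, 8, 3, 9 and 14 intron reads from ZT0 to ZT28.

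Time since the meal was compared between libraries taken 3 to 8 h after food opened (7 libraries) and 19 to 24 h after it (9 libraries), with feeding group and clock time in the model. No member was called of 8 tested with edgeR, 2 had an unadjusted p under 0.05, and DESeq2 called 1. Over all genes 4.85% were called, 2.39% higher and 2.46% lower after food. The Nnat difference was -1.33 ± 0.67 on the log2 scale (adjusted p = 0.101). Over the 24 fits that left out 1 library it ran from -1.67 to -0.98, with adjusted p from 0.0244 to 0.321. It was called in 2 of them, without MD ZT0 (-1.42, adjusted p = 0.0244), without ED ZT4 (-1.64, adjusted p = 0.0286), and also with sampling time as a block (adjusted p = 0.0474). The H19 difference was 0.42 ± 0.15 (adjusted p = 0.0585), and it was called with DESeq2 (adjusted p = 0.0197). In intron rows 8.51% of rows were called in this comparison, and of the 4 members other than Nnat with enough intron reads none was called. The median difference of the 8 fast muscle markers was 0.39 in the same comparison, with 0 of 8 called, and 2 of 3 satellite cell markers rose. Differences of the other 6 members lay between 0.026 and 0.19.

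Other imprinted genes did not rise as a body. Of 40 listed, 31 were tested, and between MD and ED 3 rose and 6 fell, 9 of 31 against 23.0% of all genes, with a median log2 difference of -0.0026. Rian, a non-coding RNA of the Dlk1 and Meg3 cluster, fell by 0.60 ± 0.11 on the log2 scale (adjusted p = 1.84e-04). Ndn, which encodes the growth-suppressing protein necdin, fell by 0.46 ± 0.11 (adjusted p = 0.00357). Peg13, a non-coding RNA, rose by 0.30 ± 0.06 (adjusted p = 0.00320) and Zdbf2 by 0.92 ± 0.24 (adjusted p = 0.00446). After food 2 of the 31 were called, beside 4.85% of all genes. Peg10, a gene derived from a retrotransposon, rose by 0.79 ± 0.17 (adjusted p = 0.00680) and Mirg, another RNA of the Dlk1 and Meg3 cluster, by 0.59 ± 0.14 (adjusted p = 0.0136). Slc38a4, an amino acid transporter gene, was the only 1 of the 31 with a called rhythm, in EN (adjusted p = 0.00212, amplitude 0.72 ± 0.11, peak ZT 1.58). Its rhythm differed between EN and MD (adjusted p = 0.00565). Over all genes 1.06% had a called rhythm in EN and 0.350% a different rhythm between EN and MD.

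Genes of the IGF axis, through which Igf2 acts, were called in both directions. Of 19 tested, 4 rose and 2 fell in MD against ED, beside 11.2% higher and 11.8% lower over all genes. Igf1r, the receptor, rose by 0.33 ± 0.09 on the log2 scale (adjusted p = 0.00560) and Stc2, which restrains the release of IGF from its binding proteins, rose by 0.70 ± 0.23 (adjusted p = 0.0165). Igf1 fell by 0.60 ± 0.15 (adjusted p = 0.00243) and Igfals, the stabilizing subunit of circulating IGF complexes, by 0.86 ± 0.15 (adjusted p = 5.22e-04). After food 3 of the 19 were called, beside 4.85% of all genes. Irs2, an insulin receptor substrate, fell by 0.86 ± 0.18 (adjusted p = 0.00230), Stc1 fell by 0.68 ± 0.22 (adjusted p = 0.0365) and Igfbp5, an IGF binding protein, rose by 0.48 ± 0.11 (adjusted p = 0.00711). Pappa, a protease of IGF binding proteins, had a called rhythm in ED, with a peak at ZT 22.1 (adjusted p = 0.0264), and Igfbp5 in MD, with a peak at ZT 12.7 (adjusted p = 0.0364), each 1 of 19 beside 0.719% of all genes in ED and 0.942% in MD. None of the 19 was called between EN and ED.

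The Notch pathway was listed because Dlk1 encodes a protein related to Notch ligands. Of 14 genes tested 2 rose and 1 fell in MD against ED, a share close to the 23.0% of all genes called, and nothing is read from it about the pathway. Notch1 rose by 0.39 ± 0.11 (adjusted p = 0.00696), Notch2 by 0.21 ± 0.05 (adjusted p = 0.0114), and the target gene Hes1 fell by 0.33 ± 0.10 (adjusted p = 0.0146). None was called between EN and ED, for rhythm or after food. Dlk1 itself had 0.289 to 1.08 CPM in EN, 0.132 to 0.732 CPM in MD and 0.216 to 0.583 CPM in ED, and the groups overlapped. At 3 to 16 reads a library Dlk1 did not pass the count filter, and a difference between groups was not tested in the model reported.

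For the other members too, the genes most like them in course are given as a description. They were Mll2 (r = 0.814), Mink1 (0.805) and Lpar5 (0.803) for Igf2, Cdh3 (0.834), Tiam2 (0.782) and Cit (0.765) for Meg3, and Rsph3b (0.814), Anpep (0.704) and Atp1b4 (0.696) for Cdkn1c. For Plagl1 they were Ndrg4 (0.699), Glipr2 (0.689) and Armcx3 (0.687), and for Grb10 Il1r2 (0.709), Cdk20 (0.694) and Coro2b (0.676).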

How the data were processed

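Expression was measured in 24 pooled libraries, 8 per feeding group. The deposited table holds raw read counts per gene model, whole numbers with separate exon, intron and antisense rows, per the file headers. The second deposited table holds RPKM values normalized with cqn, per the file name, and was used for levels between genes and with limma. The submitters' processing notes name mm10, TopHat2, SAMtools and HOMER, and counting settings were not given in the sources used here. RNA of RIN above 6.5 was pooled, per the labels' protocols. Of rows sharing a symbol, that with the highest total was kept. Every column matched 1 library.

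Genes passed filterByExpr of edgeR (minimum count 10, minimum total 15), and counts were scaled by TMM. A single edgeR model (quasi-likelihood F test) fitted the mean and a 24 h cosine and sine of every group, with 15 residual degrees of freedom. The model of time since food had group, clock time and class (3 to 8, 11 to 16, 19 to 24 h), with 14. Least squares on log2 CPM (prior count 2) gave differences and standard errors, and medians over genes from edgeR. R 4.3.3, edgeR 4.0.16, limma 3.58.1 and DESeq2 1.42.0 were used. Only the edgeR model of daily curves was run on simulated data, for the MD against ED mean level and the rhythm in MD.

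The members and lists were chosen with earlier results of these data known. All members are named, at most 4 called genes per other list and comparison with the smallest p, the 5 genes most like Nnat and the 3 most like each other member. A gene among those most like Nnat is not reported here. Alternatives covered scaling, filter, tool, pseudocount, row choice, day, time block, means alone, groups fitted alone and each library left out. Coordinates are from GENCODE vM21 and start windows from RefSeq (GRCm38.p6), matched by symbol for 7 of 9 members.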

Additional observations from a re-analysis of the deposited data

Results flagged for a closer look

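In ED, the ZT24 library had the lowest Cdkn1c level, 8.15 CPM, and stood apart from the other 7 ED libraries, which lay between 11.6 and 15.1 CPM. The gap to its nearest neighbour was 0.575 of the range of the group. Of 27 groups of values examined, 9 genes in 3 feeding groups, this was the only 1 past the limit, and chance flags about 1 in 20. The same library had a high summed level of hair shaft markers (704 CPM, against a median of 3.05 CPM in ED). Whether these values are linked was not tested. Without both libraries with high hair markers, Cdkn1c was still called higher in MD than in ED.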

How the results depend on the processing

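H19 and Cdkn1c were called higher in MD than in ED in every alternative that gave them a value, except with the L code as a term, where 0 genes of all were called. The count of members called between MD and ED was 5 in the model reported. It was 3 with limma on log2(RPKM + 0.1) (H19, Cdkn1c, and Meg3 lower), 2 with group means only, 2 with sampling time as a replicate block, 0 in intron rows and 0 with the L code as a term, and ran from 2 to 5 over fits leaving out 1 library. Plagl1 turned to -0.0969 in intron rows and to -0.114 with the L code. The Nnat difference of EN and MD was 5.25 with the L code, where EN and MD share no code value, and 1.85 to 3.06 in the other alternatives.

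A rhythm of 1 member instead of 0 was called in ED (Peg3) with no low-count filter, with DESeq2, with limma on log2(RPKM + 0.1) and with groups fitted alone. In EN it was 1 with DESeq2 (Peg3) and with groups fitted alone (H19). In MD the count of 1 became 0 without ZT24 and ZT28, with groups fitted alone, in intron rows and with the L code. Leaving out 1 library gave 0 to 1 in each group. A different rhythm was called for 1 member, Peg3, between MD and ED and between EN and MD, with DESeq2 and with the replicate block. After food the count was 2 with no low-count filter (H19 and Nnat), 1 with DESeq2 (H19), 1 with the replicate block (Nnat), and 0 to 2 leaving out 1 library. The intron row of Nnat, kept mainly through EN, is left out of the counts for intron rows. The cause of these changes was not tested. The intron and L code fits were chosen after seeing the data.

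The replicate block changed no other count of members, and within a group no paired analysis was possible because each time has 1 library. Deviations of libraries of the same sampling time correlated above 0.1 in 9 of 24 pairs (-0.153 to 0.245, median 0.0712). The model reported did not take the times as pairs, and these values have no reference that would settle that choice. Over all genes, a rhythm was called for 166 genes (EN), 148 (MD) and 113 (ED). These counts moved by over 1.5 times with DESeq2 (348, 494 and 394), without the second day (64, 78 and 24), with groups fitted alone (298, 23 and 74) and with the L code (11, 27 and 12), and without both libraries with high hair markers in EN and ED (98 and 61). Calls of a different rhythm, 63 between EN and ED, 55 between EN and MD and 55 between MD and ED, ranged from 210.0 to 271 with DESeq2, from 16 to 22 without the second day and from 1 to 4 with the L code. With the replicate block the counts of the pairs with EN were 136 and 95. The 762 calls after food were 373 without the second day, 99 with the L code and 1241 in intron rows. The 3608 calls between MD and ED were 2258 in intron rows and 1981 without MD ZT16. Leaving out 1 library gave 43 to 191 rhythm calls in EN, as few as 51 in MD and 25 to 153 in ED, and 302 to 1038 calls after food. Of the 9 genes, Dlk1, Igf2 and Nnat had the fewest exon reads, 188, 2355 and 2980 in all libraries together.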
